A study of Mus musculus
Mus spretus with 18 samples.

Results

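The genes described here are cyclins and cyclin-dependent kinases (CDKs) of the mouse autosomes, chosen by symbol alone: Ccn followed by a letter from a to l or y, with or without a digit, or Cdk followed by digits. Ccnt1, Ccnt2 and Cdk11b do not match this rule and are counted with other regulators below. The rule found 37 of the 30037 autosomal genes in the expression table, 20 cyclins and 17 kinases, and left out 2 genes on the X chromosome, Ccnb3 and Cdk16. By role they were 10 cell cycle cyclins, 5 cyclins of transcription and splicing, 5 other cyclins, 4 cell cycle kinases, 7 kinases of transcription and 6 other kinases. These genes held 431 of the 121350 autosomal skipped exon events, over 231 exons of all 37 genes, and 10 of the 2158 retained intron events, in 6 genes.

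The data are RNA sequencing (RNA-seq) libraries of F1 hybrid mice between C57BL/6J, a laboratory strain, and SPRET/EiJ, an inbred strain derived from Mus spretus, so each library holds RNA from a C57BL/6J and a SPRET/EiJ allele in the same nuclei. Cerebral cortex, heart, kidney, lung, spleen and liver came from untreated female animals aged 8 weeks, with 2 libraries per organ, and the 2 libraries of embryonic stem cells (ESC) came from independent clones. Fibroblasts derived from the same F1 cross were treated for 4 h with 0.1 μM pladienolide B (PladB, 2 libraries), a small molecule that inhibits the SF3B complex of the spliceosome, or with its solvent DMSO (2 libraries). Per the study's methods the organs came from 2 animals, so libraries of different organs share animals, and the labels do not say whether a replicate number marks an animal. In all there were 18 libraries. The strain entries of the liver labels carry names other than C57BL/6J, and the liver libraries were used as the F1 hybrids their titles describe. Where nothing says that samples came from separate cultures, as in the fibroblasts, p-values measure the spread between these samples, which may be technical.

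Junction reads were summed over autosomal skipped exon events, so a read used by several events counts in each. These sums ranged from 45055286 to 128494506 per tissue library and from 121091735 to 144154268 per fibroblast library. Events of the cyclin and CDK genes made up 31757 to 459698 of them in tissue libraries and 254297 to 575379 in fibroblast libraries. All 4 markers chosen for each organ, for ESC and for fibroblasts had a mean above 1 TPM in the group of that name. That limit alone does not set the groups apart. The 4 fibroblast markers met it in every group, the liver markers in kidney, the lung markers in spleen, and the heart and spleen markers in lung. The summed TPM of each marker list were highest in the group of that name. The ESC clones differed from each other more than other replicates did: 33.8% of genes were more than 1.5-fold apart, and 14 of 35 cyclin and CDK genes, against 10.2% of genes in spleen and at most 3.7% elsewhere.

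Cyclins are regulatory subunits that bind and activate cyclin-dependent kinases. Cyclins D, E, A and B pair in turn with Cdk4 or Cdk6, Cdk2 and Cdk1 to drive a cell through growth, DNA replication and mitosis, and their levels rise and fall with the cycle. Another set does not follow the cycle: cyclin H with Cdk7, cyclin C with Cdk8 or Cdk19, cyclin K with Cdk12 or Cdk13, and Cdk9 phosphorylate RNA polymerase II or its cofactors, and cyclins L1 and L2 localise to nuclear speckles and take part in splicing.

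Expression was given in TPM, a gene's share of the transcripts of a library, adjusted for gene length. Genes with a mean of at least 1 TPM over the libraries compared were tested with limma on log2(TPM + 1), so fold changes of low genes are understated. Of the 37 genes, 35 passed in fibroblasts. After PladB 30 were lower, 2 were higher and 3 did not pass the adjusted p limit of 0.05. Calls were common in this comparison: 90.1% of the 12281 genes tested changed, 15.2% higher and 74.9% lower. The median log2 change was -1.54 over the cyclin and CDK genes and -1.04 over all genes tested. Because TPM are shares, the same values were also centred on the median gene of each library, a point that moved by -1.36 (log2) from DMSO to PladB. On that scale 30 of the 35 genes were called, 13 higher and 17 lower, so the direction of a moderate change depends on what it is measured against. In bulk samples, fewer cells of a type and less RNA per cell cannot be told apart.

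**Figure D1:**
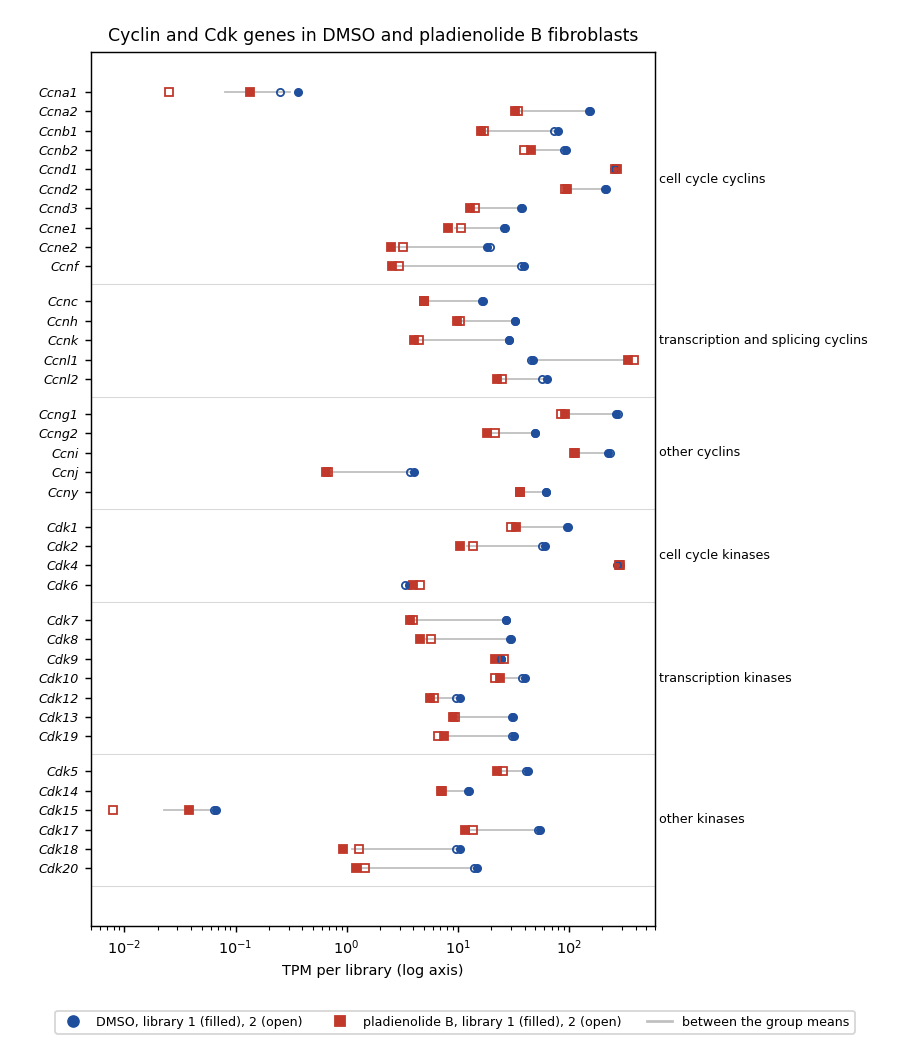
Expression of each cyclin and CDK gene in the 4 fibroblast libraries, in TPM on a log axis, ordered by role; circles are DMSO and squares pladienolide B, filled for library 1 and open for library 2. Ccnl1 lies to the right in PladB (340 and 390 TPM against 47.3 and 45.8 TPM), Ccnd1, Cdk4 and Cdk9 overlap or lie close together, and most others lie to the left on this TPM scale, which is not centred on the median gene.

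Ccnl1, which encodes cyclin L1, was the gene of the list that rose most. Its TPM were 47.3 and 45.8 in DMSO and 340 and 390 after PladB. Both treated libraries were far above both controls, a 7.85-fold higher mean TPM (log2 change 2.94 ± 0.07 SE, adjusted p = 1.13e-06), and the gene ranked 91 from the top among the 12281 genes tested. Its paralogue Ccnl2 had 63.6 and 58.0 TPM in DMSO and 22.8 and 25.2 TPM after PladB (log2 change -1.30 ± 0.07, but 0.061 when centred on the median gene, which did not pass, adjusted p = 0.386). The other cyclins of transcription fell on both scales. Ccnk had 29.2 and 29.1 TPM in DMSO and 4.07 and 4.503 TPM in PladB (log2 change -2.51 ± 0.06), while Ccnh changed by -1.59 and Ccnc by -1.57 on the log2 scale.

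Among the kinases of transcription 6 of 7 fell in TPM. Cdk7, the kinase of the general transcription factor TFIIH, had 27.3 and 27.1 TPM in DMSO and 3.76 and 3.99 TPM after PladB (log2 change -2.53 ± 0.05). Cdk8, of the Mediator kinase module, had 29.9 and 29.8 TPM in DMSO and 4.61 and 5.77 TPM in PladB (log2 change -2.32 ± 0.10). In both kinases the treated libraries lay several-fold below the controls. Cdk19 (-2.005) and Cdk13 (-1.64) had smaller log2 changes, as did Cdk10 (-0.75) and Cdk12 (-0.68), which were lower in TPM but higher when centred on the median gene (0.61 and 0.68). Cdk9, the kinase of the elongation factor P-TEFb, had 24.4 and 24.8 TPM in DMSO and 21.6 and 26.0 TPM in PladB, and the groups overlapped (log2 change -0.05 ± 0.09, adjusted p = 0.616; 1.31 when centred).

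On the TPM scale no cell cycle cyclin rose, and 8 of the 9 tested fell, with a median log2 change of -1.40, while Ccnd1, Ccnb2 and Ccnd2 were higher once centred on the median gene (1.43, 0.27 and 0.19). Ccnf, the cyclin that serves as a substrate receptor of an SCF ubiquitin ligase, fell most of the whole list: 39.8 and 36.9 TPM in DMSO against 2.54 and 2.96 TPM after PladB, a 13.95-fold lower mean TPM (log2 change -3.39 ± 0.08, adjusted p = 1.06e-06). Ccne2, a partner of Cdk2 at the entry into DNA replication, had 18.4 and 19.6 TPM in DMSO and 2.50 and 3.24 TPM in PladB (log2 change -2.37 ± 0.10). Ccna2 had 156 and 152 TPM in DMSO and 32.5 and 34.8 TPM in PladB (log2 change -2.16 ± 0.05). Ccnb1, the mitotic cyclin, had 79.5 and 74.3 TPM in DMSO and 16.1 and 17.3 TPM in PladB (log2 change -2.14 ± 0.06). In each of these 4 genes the treated libraries lay below both controls, and each was also lower when centred. Ccne1 (-1.40), Ccnd3 (-1.39), Ccnd2 (-1.17) and Ccnb2 (-1.09) had smaller log2 changes on the TPM scale, and of these Ccne1 (-0.038) and Ccnd3 (-0.022) no longer passed when centred. Ccnd1, the D-type cyclin of many growing fibroblasts, had 253 and 260 TPM in DMSO and 274 and 263 TPM in PladB (log2 change 0.07 ± 0.04, adjusted p = 0.16). Ccna1, the germ line form of cyclin A, was below the filter, with 0.365 and 0.25 TPM in DMSO and 0.136 and 0.0252 TPM in PladB.

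The 4 cell cycle kinases differed. Cdk2 fell, with 60.8 and 56.97 TPM in DMSO and 10.5 and 13.9 TPM in PladB (log2 change -2.20 ± 0.13), and so did Cdk1, with 95.9 and 98.2 TPM in DMSO and 33.5 and 30.3 TPM in PladB (log2 change -1.58 ± 0.06). Cdk4 had 288 and 273 TPM in DMSO and 288 and 285 TPM in PladB (log2 change 0.03 ± 0.04, adjusted p = 0.451; 1.40 when centred). Cdk6 rose slightly, from 3.61 and 3.34 TPM to 4.00 and 4.57 TPM (log2 change 0.24 ± 0.08, adjusted p = 0.035). With 1 library left out its log2 change ranged from 0.16 to 0.32, and the call did not hold in every such fit. On the TPM scale, changes in Ccnd1 and its partner Cdk4 thus did not exceed the spread of the libraries, while Cdk2 and Cdk1 fell. So did the cyclins Ccne1, Ccne2, Ccna2, Ccnb1 and Ccnb2, which act with Cdk2 or Cdk1, but also the D cyclins Ccnd2 and Ccnd3. When centred, Cdk2 (-0.83) and Cdk1 (-0.21) stayed lower and Ccnd1 (1.43), Cdk4 (1.40) and Cdk6 (1.60) were higher. On that scale Ccnb2 was also higher (0.27) and Ccne1 did not pass (-0.038).

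All 5 other cyclins and all 5 other kinases tested fell in TPM. Of these Ccni (0.35), Ccny (0.60), Cdk5 (0.57) and Cdk14 (0.63) were called higher when centred. On that scale Ccng2 (0.10, adjusted p = 0.231) and Ccnj (-0.18, adjusted p = 0.0614) did not pass. Cdk20 had 14.96 and 13.95 TPM in DMSO and 1.21 and 1.48 TPM in PladB (log2 change -2.72 ± 0.08). Cdk18 had 10.6 and 9.73 TPM in DMSO and 0.935 and 1.30 TPM in PladB (log2 change -2.40 ± 0.10). Cdk17, like Cdk18 a kinase of the PCTAIRE family, had 55.0 and 52.5 TPM in DMSO and 11.6 and 13.6 TPM in PladB (log2 change -2.01 ± 0.08). These kinases were several-fold lower, and the remaining members of both groups ranged from -1.61 (Ccng1, a target of p53) to -0.74 (Cdk14). Cdk15 was below the filter at no more than 0.0666 TPM in any fibroblast library.

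A list of 53 other genes, called regulators here, held CDK inhibitors, Cdc25 phosphatases, E2F and Rb family genes and mitotic genes. It also held Ccnt1, Ccnt2 and Cdk11b, and genes such as Med13, Fos, Jun and Myc. Of the list, 50 genes were tested in fibroblasts: 41 fell, 6 rose and 3 did not pass. Their median log2 change was -1.32, beside -1.04 over all genes tested, of which 74.9% fell and 15.2% rose. The largest changes were in Cdc25b (-3.32), an activator of CDK1 complexes, Cdc20 (-3.08), which activates the anaphase-promoting complex, the pocket protein gene Rb1 (-3.01), E2f5 (-2.82), Mki67 (-2.75) and E2f6 (-2.68), all lower.

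Across the 7 tissues, 36 of the 37 genes passed the filter and all 36 differed between tissues, as did 99.6% of the 17693 genes tested. In ESC against the mean of the 6 organs, 23 were higher, 4 lower and 9 did not pass, while 47.1% of all genes tested were higher and 38.3% lower. The median log2 difference, ESC minus organs, was 1.07 over the cyclin and CDK genes and 0.18 over all genes. With values centred on the median gene, 21 were higher and 9 lower.

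**Figure D2:**
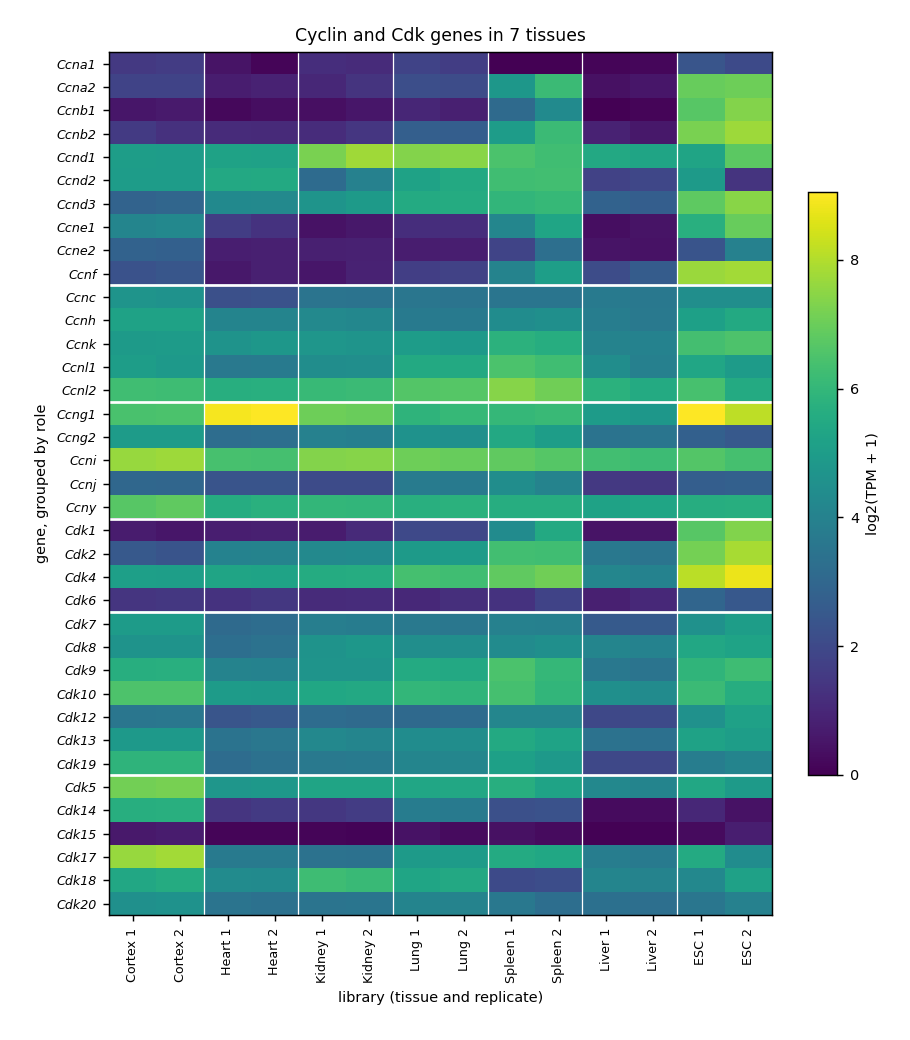
Expression of the cyclin and CDK genes in the 14 tissue libraries, as log2(TPM + 1) in colour, with genes in rows ordered by role and libraries in columns. Most cell cycle cyclins and kinases are brightest in ESC, except Ccnd1 (kidney) and Ccnd2 (spleen), and Cdk5, Cdk14 and Cdk17 are brightest in cortex.

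Of the cell cycle genes, 8 of the 10 cyclins and all 4 kinases had their highest mean in ESC, and Ccnd1 and Ccnd2 had not. Ccnf had 204 and 221 TPM in ESC and between 0.456 and 32.6 TPM in organ libraries (log2 difference 5.67 ± 0.23, adjusted p = 7.57e-09). Ccnb1 had 102 and 166 TPM in ESC against means of 0.0589 TPM in liver to 13.4 TPM in spleen (log2 difference 6.03 ± 0.26). Cdk1 had 104 and 161 TPM in ESC and means of 0.41 TPM in liver to 31.6 TPM in spleen (log2 difference 5.42 ± 0.25). Each of these genes was higher in both ESC clones than in any of the 12 organ libraries, and spleen came next in each. Ccnb2 (5.35), Ccna2 (5.02) and Ccne1 (4.24) had log2 differences of similar size, and all 4 cell cycle kinases were higher in ESC, with a median of 3.08. Cdk4 had 277 and 443 TPM in ESC against means of 16.1 TPM in liver to 124 TPM in spleen, and Cdk2 143 and 234 TPM against 4.43 TPM in cortex to 78.0 TPM in spleen.

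The D cyclins each had another order of tissues. Ccnd1 was high in kidney (148 and 214 TPM) and lung (166 and 174 TPM), which overlapped, and lowest in cortex (31.6 and 31.2 TPM). Ccnd2 was highest in spleen (76.5 and 77.7 TPM) and lowest among the organs in liver (2.41 and 2.80 TPM), and the ESC clones were 18.8-fold apart (29.4 and 1.56 TPM). Ccnd3 was highest in ESC (109 and 174 TPM), followed by spleen (61.2 and 66.2 TPM). The ESC clones also differed in Ccnd1 (38.1 and 107 TPM), and neither Ccnd1 (log2 difference -0.12, adjusted p = 0.7) nor Ccnd2 (-1.45, adjusted p = 0.0602) passed the test of ESC against organs. With 1 clone left out the sign turned: Ccnd1 gave 0.61 without clone 1, and Ccnd2 gave 0.33 without clone 2.

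The spleen libraries also stood apart in the cell cycle genes. Replicate 2 was higher than replicate 1 by more than 1.5-fold in 8 of 35 genes, and no gene of the list was higher in replicate 1 by that much. Ccne2 had 2.62 and 8.98 TPM in spleen replicates 1 and 2, Ccna2 27.0 and 70.8 TPM, Ccnb1 7.68 and 19.1 TPM and Cdk1 19.4 and 43.7 TPM. For these 4 genes the libraries were 3.43-fold, 2.62-fold, 2.48-fold and 2.25-fold apart, and Ccnb2, Ccne1, Ccnf and Cdk6 made up the 8.

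Several kinases outside the cycle were high in cortex. Cdk17 had 201 and 219 TPM in cortex and means of 9.62 TPM in kidney to 43.4 TPM in spleen among the other tissues. Cdk5, which acts in postmitotic neurons with its p35 partner, had 137 and 144 TPM in cortex and means of 16.6 TPM in liver to 43.4 TPM in spleen. Cdk14, a partner of cyclin Y, had 50.1 and 51.4 TPM in cortex and 1.00 and 0.351 TPM in ESC, and was the only other kinase to pass the test of ESC against organs (log2 difference -1.77 ± 0.12). Cdk18 was highest in kidney (74.6 and 68.8 TPM) and lowest in spleen (3.12 and 3.40 TPM). Cdk15 was at most 0.677 TPM in every tissue library.

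The median log2 range between the highest and lowest tissue was 2.40 in the cyclins and 2.42 in the kinases of transcription, 5.18 and 4.73 in the cell cycle cyclins and kinases, and 3.28 over all genes, a difference between groups that was not tested. Cdk19 had the widest range of the transcription kinases, with means of 58.4 TPM in cortex and 2.86 TPM in liver. Ccnc ranged from a mean of 3.73 TPM in heart to 24.1 TPM in cortex, Ccnh from 12.1 TPM in lung to 39.2 TPM in ESC, and Ccnl1 from 11.7 TPM in heart to 81.8 TPM in spleen. Of the 7 kinases 6 were higher in ESC, among them Cdk12 (log2 difference 1.80 ± 0.13) and Cdk7 (1.12 ± 0.10), although Cdk10 (0.31) and the cyclin Ccnl1 (0.32) did not pass when centred (adjusted p = 0.992 and 0.978), without ESC clone 1 (0.714 and 0.42) or in most fits with another library left out. Ccng1 was high in heart (485 and 519 TPM) and in ESC (529 and 281 TPM), which overlapped, and among the 3 cyclins called lower in ESC Ccng2 differed most (5.93 and 4.70 TPM, log2 difference -1.59 ± 0.11). Of the 53 regulators 43 were higher in ESC, 7 lower and 3 did not pass, beside 47.1% higher and 38.3% lower of all genes, and the largest differences were in Cdc20 (5.78), Top2a (5.70), Cdc25c (4.63), Mki67 (4.31), Cks2 (4.25) and Cdkn1a (4.24), all higher.

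Splicing was measured as PSI, the share of transcripts that include an exon (from 0 to 1), computed from junction reads that join the exon to its neighbours or skip it and from the effective lengths of both forms. At a PSI of 0.5, counting error alone gives a 95% Wilson interval of 0.299 to 0.701 at 20 reads, 0.404 to 0.596 at 100 reads and 0.469 to 0.531 at 1000 reads. An event needed at least 20 reads in each library and at least 10 reads of its rarer form, and was called at an adjusted p under 0.05 in a quasi-binomial model with dispersions moderated by limma and a change in PSI (ΔPSI) of at least 0.1. Positions are those of the C57BL/6J genome mm10 (GRCm38). Whether these exons lie in coding sequence or in a UTR was not analysed here.

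In fibroblasts 120 events over 97 exons in 30 of the genes could be tested. After PladB 40 events in 16 genes were called, and all 40 had lower inclusion. That was 33.3% of the events of the list, against 19.3% of all 21472 events tested (18.8% lower and 0.466% higher). The median ΔPSI was -0.0483 in the list and -0.0147 over all events. Because most exons were included almost fully in DMSO, many events passed the minimum on the rarer form only through the PladB libraries, so these shares describe events that had to show skipping in some library. Without that minimum 41 of 269 events were called (15.2%), against 8.21% of all events. The 40 events used 30 exons of 43 to 478 bp (median 107.5 bp), of which 15 had a length that is a multiple of 3 and 15 had not. Several share a skipping junction, so the 40 events rest on 31 distinct junctions. With 2 libraries per condition the count depended on single libraries: 0 events were called without either PladB library, 25 without DMSO library 1 and 23 without DMSO library 2. With the prior dispersion of the full fit kept, an alternative chosen after seeing the data, 33 and 28 were called without PladB library 1 and 2, and 36 and 37 without DMSO library 1 and 2. The PladB libraries also lay farther apart, by at least 0.1 in 16 of 108 events of the list, against 1 of 44 in DMSO. For 26 of the 40 no skipping read was found in either DMSO library, among 87 to 10780 reads, which allows a skipped share of up to 0.0278% to 3.45%.

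The 80 events not called ranged in ΔPSI from -0.141 to 0.0624, and 39 of them passed the p limit but changed by less than 0.1. Of the 16 genes with a called exon, 13 fell in TPM (not centred), 2 rose (Ccnl1 and Cdk6) and 1 did not pass (Cdk9), with a median log2 change of -1.60. The other 14 genes tested had a median log2 change of -1.05. Their median DMSO levels were 39.6 TPM with and 52.1 TPM without a called exon.

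**Figure D3:**
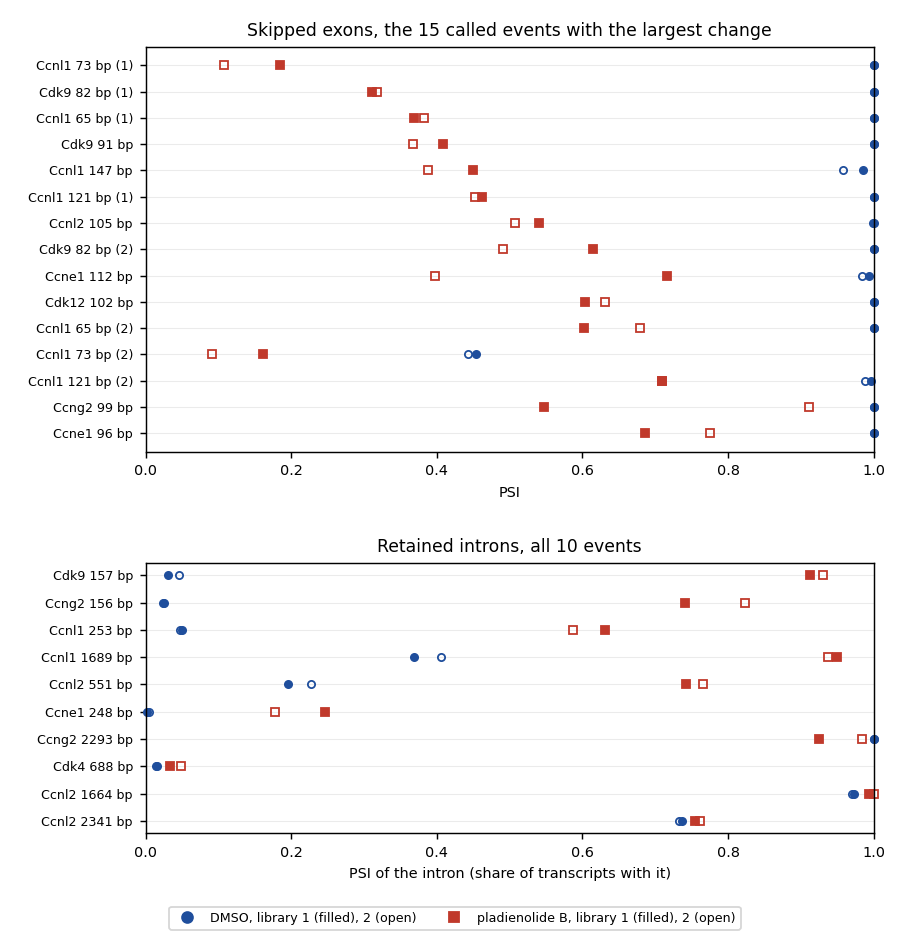
Top, PSI of the 15 called skipped exon events with the largest change in fibroblasts, numbered where an exon appears with different flanking exons; bottom, PSI of the 10 intron events (those of 1689 bp, 2293 bp and 2341 bp contain inner exons). Circles are DMSO and squares pladienolide B, filled for library 1 and open for library 2, and the exons shift to the left and 6 of the introns to the right.

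Ccnl1 and Cdk9 had the largest changes. In Ccnl1 (chr3:65945908-65962029, minus strand) 8 of 14 events were called. Its 73 bp exon at chr3:65955204-65955276, read against the junction that joins positions 65948790 and 65956853, had a PSI of 1.00 and 1.00 in DMSO and 0.185 and 0.108 after PladB (ΔPSI -0.854, adjusted p = 0.000774). That junction, which leaves out this exon together with those at chr3:65950480-65950544 (65 bp) and chr3:65951434-65951554 (121 bp), had 223 and 401 reads in the PladB libraries and 0 in either DMSO library, where 0 of 357 reads allows a skipped share of up to 0.84%. The 65 bp exon had PSI values of 0.368 and 0.382 and the 121 bp exon of 0.461 and 0.452 against it in PladB, and both were at 1.00 in DMSO. The size depends on which skipping junction is counted. Between the exon ending at 65951554 and the one starting at 65956853, the 73 bp exon was already alternative in DMSO. There it had 556 and 507 inclusion reads and 450 and 429 skipping reads in DMSO. In PladB, then, some Ccnl1 reads skipped a run of exons for which no such read was found in DMSO, in the same libraries in which the gene's TPM were 7.85-fold higher.

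Cdk9 (chr2:32705782-32712784, minus strand) did not pass the test of TPM and had 7 of 8 events called. Its 82 bp exon at chr2:32712031-32712112 had PSI values of 1.00 and 1.00 in DMSO and 0.310 and 0.318 in PladB (ΔPSI -0.686, adjusted p = 0.000415). The 91 bp exon at chr2:32710477-32710567 had 1.00 and 1.00 in DMSO and 0.409 and 0.368 in PladB (ΔPSI -0.612, adjusted p = 0.000405). Both events rest on the junction between positions 32710209 and 32712565, which leaves out both exons and had 82 and 103 reads in PladB and 0 in DMSO (up to 0.412% of 728 reads). With other flanking exons the 82 bp exon had ΔPSI of -0.448 and -0.207, so the size depends on which skipping junction is counted.

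The other cyclins and kinases of transcription with called exons were Ccnl2, Ccnh, Cdk12, Cdk7 and Cdk19. The 105 bp exon of Ccnl2 at chr4:155820784-155820888 had PSI values of 0.999 and 1.00 in DMSO and 0.541 and 0.508 in PladB (ΔPSI -0.475, adjusted p = 0.000485). The 102 bp exon of Cdk12 at chr11:98230984-98231085 had 1.00 and 1.00 in DMSO and 0.604 and 0.631 in PladB (ΔPSI -0.382, adjusted p = 0.00185). In both exons the PladB libraries lay close to each other and far below DMSO. Cdk7 had 4 of 9 events called, with ΔPSI down to -0.155. Ccnh had 1 of 7 (-0.127) and Cdk19 had 1 of 4 (-0.181). No event of Ccnc, Ccnk, Cdk8 or Cdk10 was called, with ΔPSI between -0.141 and 0.0624.

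In the cell cycle group 9 events of 6 genes were called: Ccna2, Ccnb1, Ccne1, Ccne2, Cdk2 and Cdk6. The 112 bp exon of Ccne1 at chr7:38099247-38099358 had PSI values of 0.993 and 0.984 in DMSO and 0.716 and 0.397 in PladB (ΔPSI -0.432, adjusted p = 0.0052). The 96 bp exon of Ccne1 at chr7:38099789-38099884 had 1.00 and 1.00 in DMSO and 0.686 and 0.776 in PladB (ΔPSI -0.269). The 144 bp exon of Cdk2 at chr10:128699976-128700119, which was already alternative in DMSO (0.402 and 0.416), had 0.185 and 0.186 in PladB (ΔPSI -0.224). These events had few reads in PladB, from 32 to 178 per library, and the PladB libraries lay far apart in the first Ccne1 exon. The 110 bp exon of Ccna2 at chr3:36568980-36569089, with 402 and 501 reads in PladB, had 0.821 and 0.798 there and 1.00 in both DMSO libraries (ΔPSI -0.191). In Cdk4, which did not pass the test of TPM, none of 12 events was called, with ΔPSI from -0.0453 to 0.000627, and in Cdk1 none of 4, with -0.0963 to -0.00702. No exon of Ccnd1, Ccnd2 or Ccnd3 was called.

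Of the remaining groups Ccng2 had 4 of 4 events called, Ccng1 1 of 3 and Cdk17 1 of 2. The 99 bp exon of Ccng2 at chr5:93271363-93271461 had PSI values of 1.00 and 1.00 in DMSO and 0.547 and 0.911 in PladB (ΔPSI -0.271, adjusted p = 0.0158), on 39 and 72 reads. The 43 bp exon of Cdk17 at chr10:93236921-93236963 had 1.00 and 1.00 in DMSO and 0.811 and 0.729 in PladB (ΔPSI -0.23). Both exons were lower in each PladB library than in DMSO, with a wider spread in Ccng2.

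Called introns were retained more after PladB. All 10 introns could be tested, and 6 in 5 genes had higher retention after PladB, against 41.3% of all 1662 introns tested (38% higher and 3.25% lower). Their median ΔPSI was 0.376, and 0.0474 over all introns. The 157 bp intron of Cdk9 between positions 32709615 and 32709773 was kept in a share of 0.0306 and 0.0456 in DMSO and 0.913 and 0.931 in PladB (ΔPSI 0.884, adjusted p = 1.17e-10). The 156 bp intron of Ccng2 between 93271044 and 93271201 had 0.0241 and 0.0259 in DMSO and 0.740 and 0.823 in PladB (ΔPSI 0.757). Both introns went from removal in nearly all transcripts to retention in most.

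Ccnl1 had 2 called introns. The 253 bp intron between 65948008 and 65948262 had 0.0506 and 0.0476 in DMSO and 0.632 and 0.587 in PladB (ΔPSI 0.56), on 10758 and 15001 reads in PladB. The 1689 bp intron between 65948790 and 65950480 had 0.368 and 0.406 in DMSO and 0.950 and 0.937 in PladB (ΔPSI 0.557). That interval contains 2 inner exons of other events, so its PSI also counts transcripts that use them and is not the share that keeps the whole interval. Ccnl1 thus had the highest rise in TPM of the list together with called exons and called introns. In Ccnl2 the 551 bp intron between 155817987 and 155818539 had 0.196 and 0.227 in DMSO and 0.742 and 0.766 in PladB (ΔPSI 0.543), and in Ccne1 the 248 bp intron between 38106347 and 38106596 had 0.00224 and 0.00521 in DMSO and 0.246 and 0.178 in PladB (ΔPSI 0.209). The 688 bp intron of Cdk4 had 0.0149 and 0.0160 in DMSO and 0.0334 and 0.0491 in PladB, past the p limit (adjusted p = 0.000281) but with a ΔPSI of 0.0258. The 3 others, a 2293 bp intron of Ccng2 and those of 1664 bp and 2341 bp in Ccnl2, were not called, with ΔPSI between -0.0451 and 0.0256. The intervals of 2293 bp and 2341 bp contain 2 and 1 inner exons and the 156 bp and 551 bp introns described above, so the same holds for them.

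Across tissues 89 events over 75 exons in 28 genes could be tested, and 10 events in 7 genes differed with a switch score of at least 0.1, the largest difference between tissue means. That was 11.2% of the events, against 13.4% of all 35134 events, and the median switch score was 0.0188 in the list and 0.0239 over all events. The share called was thus close to the background. With the replicate number as a block, 5 of these 10 events were called, and all 10 when the block was fitted with the prior dispersion of the full fit, an alternative chosen after seeing the data. The 7 genes were Ccnc, Ccnl1, Ccnl2, Cdk8 and Cdk10 of the transcription groups, Cdk4 and Ccnd3, and no event of the other cyclins or the other kinases was called.

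The largest switch was in the 94 bp exon of Ccnc at chr4:21747483-21747576, which had a switch score of 0.395 (adjusted p = 7e-08). Its PSI was 0.565 and 0.602 in heart, 0.519 and 0.406 in cortex, 0.443 and 0.447 in ESC, 0.390 and 0.404 in lung, 0.378 and 0.369 in spleen, 0.245 and 0.215 in liver and 0.194 and 0.184 in kidney. Kidney and liver lay below every other tissue, heart lay above, and cortex overlapped with ESC. In fibroblasts the same exon had PSI values of 0.307 and 0.388 in DMSO and 0.418 and 0.402 in PladB, which did not pass the test (adjusted p = 0.327).

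In Cdk4, the D cyclin partner, 252 bp and 234 bp forms of an exon ending at chr10:127064453, which start at 127064202 and 127064220, were both called. The 252 bp form had PSI values of 0.563 and 0.546 in cortex, 0.631 and 0.706 in heart, 0.808 and 0.834 in lung, 0.839 and 0.868 in kidney, 0.916 and 0.915 in liver and 0.919 and 0.898 in spleen, with 0.882 and 0.806 in ESC (switch score 0.361, adjusted p = 2.17e-06). Cortex was lowest, heart next, and liver and spleen were highest and overlapped. The 234 bp form shares its skipping reads and had a switch score of 0.259.

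In Ccnl1 the 73 bp exon described for PladB, here between the exons ending at 65951554 and starting at 65956853, and its 147 bp form (from 65955130) were called, with switch scores of 0.270 (adjusted p = 0.0019) and 0.301 (adjusted p = 0.00395). The 73 bp exon had 0.442 and 0.432 in cortex, 0.557 and 0.539 in heart, 0.656 and 0.590 in liver and 0.724 and 0.690 in spleen, while the ESC clones had 0.817 and 0.533. With those flanks its PSI in fibroblasts was 0.454 and 0.443 in DMSO and 0.161 and 0.0915 in PladB. In Ccnl2 the 126 bp exon at chr4:155818539-155818664 had 0.765 and 0.675 in liver, 0.404 and 0.416 in lung and 0.540 and 0.167 in the ESC clones (switch score 0.366, adjusted p = 0.00908). That score is between the means of liver and ESC, whose clones lay far apart. Among the organs Ccnl1 inclusion was lowest in cortex and highest in spleen, and Ccnl2 inclusion was lowest in lung and highest in liver.

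The last 3 genes had smaller or less certain switches. In Cdk8 the 129 bp exon at chr5:146292639-146292767 had 0.921 and 0.948 in kidney, 0.693 and 0.704 in spleen and 0.831 and 0.492 in heart on 65 and 47 reads (switch score 0.273, adjusted p = 0.0035), and its 144 bp form had a switch score of 0.160. In Ccnd3 the 175 bp exon at chr17:47572120-47572294 was included rarely, with 0.113 and 0.139 in ESC and at most 0.0592 in any organ library (switch score 0.119, adjusted p = 0.000445). In Cdk10 the 103 bp exon at chr8:123227423-123227525 had 0.974 and 0.980 in liver and 0.865 and 0.868 in cortex (switch score 0.110, adjusted p = 0.00115). Of the 79 events not called, 7 had switch scores over 0.1, up to 0.277. One was the 144 bp exon of Cdk2, where the ESC clones had 0.807 and 0.411 on 1577 and 2856 reads (adjusted p = 0.841).

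Allelic splicing was compared between the C57BL/6J and SPRET/EiJ alleles of the same libraries, with at least 20 reads per allele and library and with ΔPSI as C57BL/6J minus SPRET/EiJ. Because both alleles meet the same nuclear factors, this comparison asks for differences that the alleles carry themselves. Over the 7 tissues 121 tests of cyclin and CDK events could be made, from 10 in cortex and in liver to 39 in ESC. Only 2 events were called, both in cortex, where 8.93% of all events tested were called. Over the 7 tissues together 6.15% of all events were called, with 1.3% in ESC, 5.77% in spleen, 5.98% in liver, 6.56% in heart, 7.61% in lung and 8.12% in kidney. The called events were the 103 bp exon of Cdk10, with C57BL/6J values of 0.969 and 0.904 and SPRET/EiJ values of 0.730 and 0.676 (ΔPSI 0.233, adjusted p = 0.0275), and the 73 bp exon of Ccnl1, with 0.327 and 0.287 against 0.523 and 0.486 (ΔPSI -0.198, adjusted p = 0.0403). With the library as a block, which pairs both alleles, 0 events were called, as they were without either replicate number. In an alternative chosen after seeing the data, the block with the prior dispersion of the fit without it, Cdk10 stayed called (adjusted p = 0.033) and Ccnl1 did not (adjusted p = 0.0566).

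The Cdk10 exon could be tested in 4 other tissues and in fibroblasts. There ΔPSI was 0.283 in heart (adjusted p = 0.11), 0.242 in spleen (adjusted p = 0.0589), 0.128 in lung (adjusted p = 0.111), 0.0456 in ESC (adjusted p = 0.846), 0.0917 in DMSO (adjusted p = 0.068) and 0.0292 in PladB (adjusted p = 0.434), none of which passed. In kidney and liver, where the event was not among those tested in the single tissue, ΔPSI was 0.000489 and 0.0566. The alleles thus had almost the same mean in kidney. For Ccnl1 the sign varied, from -0.198 in cortex to 0.178 in liver (adjusted p = 0.286). The test of the difference between tissues called none of 51 events of the list and 0.123% of all 22016 events. In simulated data that test recovered only 14% of the changed events, and 30% of its calls were false. At an unadjusted p under 0.05, 2 of the 51 passed.

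In fibroblasts 106 allelic tests gave 11 calls, where 7.61% of all events in both conditions were called. With the library as a block 0 of these were called, and 3 without either replicate number. In DMSO 2 of 30 were called (7.89% of all events), both in Ccnh, the cyclin of Cdk7. Its exons of 31 bp (chr13:85197531-85197561) and 74 bp (chr13:85196252-85196325) share the junction from 85190876 to 85202333 that skips both. This junction had 8 and 11 reads on the C57BL/6J allele and 44 and 44 reads on the SPRET/EiJ allele. The 31 bp exon had PSI values of 0.962 and 0.953 on C57BL/6J and 0.794 and 0.842 on SPRET/EiJ (ΔPSI 0.14, adjusted p = 0.0151). In PladB the same alleles overlapped, with 0.810 and 0.908 against 0.869 and 0.697 (adjusted p = 0.46).

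**Figure D4:**
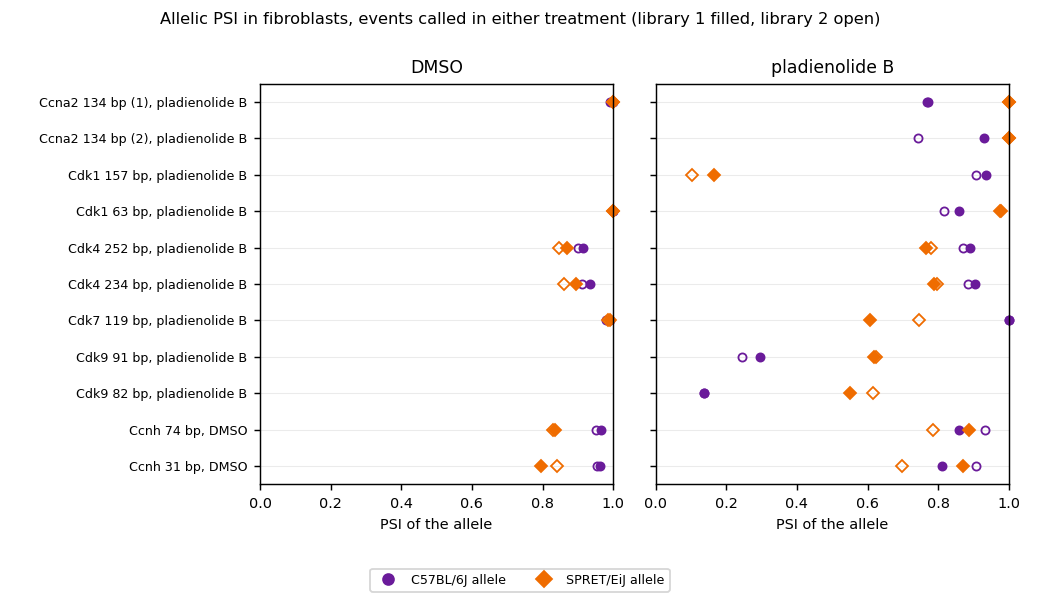
PSI of the C57BL/6J and SPRET/EiJ alleles in each fibroblast library for the 11 events called in DMSO or in pladienolide B, with DMSO in the left panel and pladienolide B in the right. Circles are C57BL/6J and diamonds SPRET/EiJ, filled for library 1 and open for library 2. Events without DMSO points are not in that table or had too few reads there, and the alleles lie farthest apart in the 157 bp exon of Cdk1.

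After PladB 9 of 76 events in 5 genes were called (7.37% of all events). These calls, over 8 exons, are not independent. The Cdk9 events share a skipping junction, the Cdk4 events share another, and the Ccna2 events are the same exon with different flanks. The largest difference was in Cdk1, the mitotic kinase. Its 157 bp exon at chr10:69346075-69346231, between positions 69342710 and 69352836, had PSI values of 0.937 and 0.906 on the C57BL/6J allele and 0.167 and 0.103 on the SPRET/EiJ allele (ΔPSI 0.786, adjusted p = 0.00036). The counts were small, with 59 and 77 inclusion reads and 2 and 4 skipping reads on C57BL/6J and 8 and 9 inclusion reads and 20 and 39 skipping reads on SPRET/EiJ. This event describes only transcripts that lack the neighbouring 63 bp exon at chr10:69350096-69350158: that exon had PSI values of 0.859 and 0.816 on C57BL/6J and 0.978 and 0.976 on SPRET/EiJ (ΔPSI -0.139, adjusted p = 0.00177). The junction that skips the 63 bp exon also counts as inclusion of the 157 bp exon, so the Cdk1 calls share reads. In PladB the C57BL/6J allele thus left out the 63 bp exon alone in 56 and 77 reads against 8 and 9 reads of SPRET/EiJ, while the junction that leaves out both exons and the next one (124 bp, chr10:69345061-69345184) had 20 and 39 reads on SPRET/EiJ and 2 and 4 on C57BL/6J. With the 63 bp exon as its flank, the 157 bp exon was included almost fully on both alleles in PladB. It had 0.992 and 1.00 on C57BL/6J and 0.977 and 0.948 on SPRET/EiJ (ΔPSI 0.0337, adjusted p = 0.114), which was not called. In DMSO the 63 bp exon was at 0.999 or above on both alleles in every library.

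In Cdk9 both exons with large PladB changes differed by allele when read against the junction that skips both. The 82 bp exon had 0.138 and 0.137 on C57BL/6J and 0.549 and 0.615 on SPRET/EiJ (ΔPSI -0.445, adjusted p = 0.00274), and the 91 bp exon had 0.297 and 0.246 against 0.617 and 0.623 (ΔPSI -0.349, adjusted p = 0.012). Their shared skipping junction had 65 and 86 reads on C57BL/6J and 17 and 17 on SPRET/EiJ. Against that junction the alleles did not overlap in either exon, and it carried more C57BL/6J than SPRET/EiJ reads in each library. With other flanking exons neither exon was called. There ΔPSI was -0.102 for the 82 bp exon (adjusted p = 0.49) and 0.081 for the 91 bp exon (adjusted p = 0.788).

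Cdk7, Ccna2 and Cdk4 made up the rest. The 119 bp exon of Cdk7 at chr13:100716501-100716619 had PSI values of 1.00 and 1.00 on C57BL/6J, with 0 skipping reads among 47 and 58 reads (up to 6.38% and 5.17%), and 0.607 and 0.747 on SPRET/EiJ in PladB (ΔPSI 0.323, adjusted p = 0.0218). In DMSO the alleles were at 0.991 and 0.980 against 0.992 and 0.986. The 134 bp exon of Ccna2 at chr3:36566541-36566674 went the other way, with 0.773 and 0.769 on C57BL/6J and 1.00 and 1.00 on SPRET/EiJ in PladB (ΔPSI -0.229, adjusted p = 0.00384), where SPRET/EiJ had 0 skipping reads among 163 and 236 reads (up to 1.84% and 1.27%). With its flank at 36567724 the same exon was also called (ΔPSI -0.164, adjusted p = 0.0268). There it had 0.929 and 0.743 on C57BL/6J and 0 skipping reads among 137 and 210 SPRET/EiJ reads (up to 2.19% and 1.43%). The 252 bp exon of Cdk4 had 0.890 and 0.871 against 0.767 and 0.779 in PladB (ΔPSI 0.108, adjusted p = 0.00087) and 0.916 and 0.902 against 0.869 and 0.846 in DMSO, where the ΔPSI of 0.0511 was under the limit (adjusted p = 0.0343). Its 234 bp form, with the same skipping reads, was also called in PladB (ΔPSI 0.100, adjusted p = 0.000829).

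These allelic calls in PladB do not show that the alleles responded differently. The test of the difference itself, allele by treatment, called none of 42 events of the list and 0.0635% of all 9451 events, and 2 of the 42 had an unadjusted p under 0.05. The smallest was Cdk7, with a ΔPSI of 0.323 in PladB and -0.00359 in DMSO (unadjusted p = 0.00221, adjusted p = 0.314). In simulated data this test recovered 46% of the changed events, and 24% of its calls were false. The test compares odds of inclusion, not PSI. It could find nothing in an exon like the 134 bp exon of Ccna2, with 0 skipping reads on SPRET/EiJ in DMSO and in PladB. There ΔPSI was -0.00527 in DMSO and -0.229 in PladB. The lack of calls therefore does not show that the alleles responded alike. The Cdk1 157 bp and Cdk9 events and the Ccna2 event with its flank at 36567724 could not enter the test, since allelic values in DMSO were not obtained for them. All 11 fibroblast calls were kept when the block was fitted with the prior dispersion of the fit without it, an alternative chosen after seeing the data, but not in the planned block fit.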

How the data were processed

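The cyclin and CDK genes, their grouping by role, the regulator list and the form of the splicing test were chosen with earlier results of these data known. Reads were mapped by the authors with HISAT2 2.0.1 against mm10 (C57BL/6J) and separately against a SPRET/EiJ genome, and each went to the strain with the smaller edit distance. They also trimmed longer reads (heart, kidney, cortex) to a common length. They counted fragments over exons with featureCounts by strand, with Ensembl 74 genes, shared fragments between overlapping genes, and deposited TPM. They counted junction reads with rMATS and deposited lists of raw junction read counts for both replicates, with effective lengths of both forms as a score. The deposited columns of PSI, PSI differences, p-values and FDR hold the authors' own values and comparisons and were not used, nor were 50 columns of per-sample values. Replicates were read from their position in each list. Which column set held which allele was taken from the study's methods and checked on imprinted genes. In ESC this check could not tell the alleles apart, since 34.7% (Meg3) to 50.2% (Snrpn) of their reads were on C57BL/6J. In liver only Impact had enough reads (154, with 29.2% on C57BL/6J).

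TPM were tested with limma 3.58.1 (R 4.3.3) on log2(TPM + 1) with a mean-variance trend, in genes with a mean of at least 1 TPM over the libraries of the fit, with Benjamini-Hochberg adjustment across the whole gene table. PSI was computed from the counts and effective lengths. Inclusion against skipping counts were fitted with a quasi-binomial logistic model, with dispersions of at least 1 moderated by limma toward a prior that follows read depth, over events with at least 20 reads per library (or allele and library) and 10 of the rarer form, adjusted over all events of a table. Calls needed an adjusted p under 0.05 and a ΔPSI or switch score of at least 0.1. Allelic tests kept events whose PSI from allelic reads lay within 0.1 of that from all reads. Allelic autosomal junction reads, summed over events as above, were 10129390 to 46565133 per allele and tissue library and 27040670 to 44922736 in fibroblasts. Intervals and limits of 0 counts (3 counts of the total) cover counting error only.

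The fits were tested on simulated data with 200 changed features. They recovered from 14% (allele by tissue) to 92% (fibroblast TPM) of these. False calls made up 0.699% (allelic PSI in cortex) to 30% (allele by tissue) of the calls. The alleles share their libraries, and the correlation of their replicate differences was 0.034 to 0.489. All 37 genes were found by symbol in RefSeq (GRCm38.p6). Any cyclin or CDK gene could be named, with values in each library for at most the 12 largest expression differences and for up to 15 called events, and at most 6 regulators per comparison. Software included Python 3.11.15, pandas 2.3.3, numpy 2.4.6, scipy 1.17.1 and matplotlib 3.10.9.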

Additional observations from a re-analysis of the deposited data

How the results depend on the processing

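Counts of calls stayed within 1.5 times in TPM and retained introns: 30 to 32 fibroblast genes, 36 or 37 tissue genes, 25 to 31 genes in ESC against organs (27 as reported) and 6 introns under every alternative. The count hides the directions: centring reversed 14, weakened 5 and strengthened 7 of 71 TPM results. Skipped exon calls depend on the prior dispersion that 2 libraries per group allow. For PladB, 40 events were called as reported, 0 to 25 with 1 fibroblast library left out, and 0 with a replicate block, where the prior had little weight. With the prior dispersion of the full fit, an alternative chosen after seeing the data, these became 28 to 37 and 39. In tissues 10 events became 5 with a replicate block and 10 to 14 with 1 library left out. The 2 allelic calls in tissues became 1 with a prior without depth trend, 0 with a replicate block, 1 with the block and the prior dispersion of the full fit, and 0 without either replicate number. The 11 allelic calls in fibroblasts became 0 with a replicate block and 3 without either replicate number. The numbers of DMSO and PladB libraries share only a number (r of their deviations 0.00657 in PSI and -0.0403 in TPM). The organs came from 2 animals, but nothing says that a number marks an animal. Deviations of same-numbered tissue libraries had r of -0.0778 to 0.0551 in PSI, and in TPM r was 0.002 to 0.289 over the 15 pairs of organs, 5 of them over 0.1.

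Centred on the median gene, log2 changes after PladB turned positive in Ccnb2 (0.27), Ccnd2 (0.19), Ccng2 (0.10), Ccni (0.35), Ccnl2 (0.061), Ccny (0.60), Cdk10 (0.61), Cdk12 (0.68), Cdk14 (0.63), Cdk5 (0.57) and Cdk9 (1.31). With 1 library left out Cdk4 ranged from -0.0047 to 0.073 and Cdk9 from -0.18 to 0.079. In ESC against organs, centring gave -0.19 for Cdk17, -0.20 for Cdk18 and -0.28 for Cdk20, and a pseudocount of 0.1 gave 0.0067 for Cdk19. With 1 library left out the log2 differences ranged from -0.85 to 0.61 in Ccnd1, -3.24 to 0.33 in Ccnd2, -0.74 to 0.14 in Ccnl2, -0.44 to 0.68 in Cdk17, -0.36 to 0.59 in Cdk18, -0.15 to 0.077 in Cdk19, -0.19 to 0.25 in Cdk20 and -0.45 to 0.052 in Cdk5, each range set by the ESC clones. The cause was not tested. The count test of edgeR was not run, because the deposited lists of junction counts are not a count column.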

Other observations

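Some allelic differences passed the p limit with a ΔPSI under 0.1 in the fit without a block. With the library as a block none of those given here passed (adjusted p = 0.43 for Ccnd3 in lung, 0.429 in spleen and 0.43 for Cdk7 in liver). With the block and the prior dispersion of the fit without it, Ccnd3 passed (0.0399 and 0.0309) and Cdk7 did not (0.0608). The 128 bp exon of Ccnd3 at chr17:47575906-47576033 had PSI values of 0.0609 and 0.0253 on C57BL/6J and 0 and 0 on SPRET/EiJ in lung (adjusted p = 0.0439), and 0.0408 and 0.0476 against 0.00228 and 0 in spleen (adjusted p = 0.0138). On SPRET/EiJ 0 inclusion reads among 141 and 144 reads in lung allow a share of up to 2.13% and 2.08%, and 0 among 377 in spleen up to 0.796%. Both organs thus gave about the same ΔPSI, 0.0431, in the same direction. In liver the 111 bp exon of Cdk7 at chr13:100717572-100717682 had 0.910 and 0.917 on C57BL/6J and 1.00 and 1.00 on SPRET/EiJ (ΔPSI -0.0867, adjusted p = 0.0284), where 0 skipping reads among 290 and 281 SPRET/EiJ reads allow up to 1.03% and 1.07%.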
